A study of Mus musculus with 10 samples.

Results

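Peaks of open chromatin that lie at the ends of neighbouring genes were examined in laser-captured nuclei of mouse lung and brain. A peak was taken where its centre lay within 500 bp of the ends of at least 2 different protein-coding genes on an autosome, whichever end of each gene that was. Of 36696 autosomal peaks in a table of 37513, 1472 met this rule, 1451 of them near 2 genes and 21 near 3. They are called shared gene-end peaks here. Another 9966 autosomal peaks lay near an end of exactly 1 coding gene and 25258 near none.

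Accessibility was measured by ATAC-seq, in which the transposase Tn5 cuts open chromatin and leaves sequencing adapters there. The tissue was fresh frozen lung and brain of wild-type mice of the inbred strain C57BL/6J. Tn5 was applied to the sections for 1 h at 37 °C before nuclei, picked at random, were cut out with a laser. A library pooled either 50 nuclei captured singly or 10 areas of about 20 nuclei, about 200 in all, so the number of nuclei and the way of capture changed together. Lung gave 3 libraries of each size and brain 2 of each, 4 groups and 10 libraries in all. The labels call the libraries technical replicates and name no animals, so every p-value below measures only the spread between these libraries.

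Neighbouring genes that are read in opposite directions from starts close to each other share a bidirectional promoter. Such promoters are common in mammalian genomes, are often rich in CpG dinucleotides, and often serve genes of basic cell functions such as DNA repair, mitochondrial translation and protein folding. A shared stretch of open chromatin can also lie where the start of one gene meets the 3′ end of the next, or where 2 genes end against each other. ATAC-seq reads do not show which of the neighbouring genes is transcribed.

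The 1472 peaks belonged to 1138 different pairs or triples and to 2247 of 20665 autosomal coding genes. Strand was known for 1875 of these genes. Of the peaks, 918 lay only at gene starts on opposite strands, 171 at a start and a 3′ end, 27 at starts on the same strand and 7 only at 3′ ends, and for 349 the strand of a gene was not in the table. The 909 peaks with exactly 2 opposite starts came from 678 pairs, whose starts were a median of 103.5 bp apart (interquartile range 43.5 to 236 bp). In 535 of these 909 (58.9%) the peak covered both starts, in 155 it covered 1 and in 219 none. At 638 of the 909 the left gene was on the minus strand and the right gene on the plus strand, the order of a bidirectional promoter. The rest did not have this order, so opposite starts here do not always mean genes read away from each other.

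Stretches between opposite starts are given first for pairs whose shared peak covered both, since they show the DNA that both genes have in common. Each was read from RefSeq promoter sequences of GRCm38.p6 on the plus strand, from the base after the left gene's start to the base before the right gene's start. Capitals mark exact matches to any of 10 short motifs spelled out further down. Nfya/Oard1 (chr17:48409821-48409956) and Npc2/Isca2 (chr12:84773113-84773229) had the highest levels among the pairs for which such a stretch could be read. Mrps12/Sars2 (chr7:28741822-28741956) is a long-known bidirectional pair, a mitochondrial ribosomal protein and the mitochondrial seryl-tRNA synthetase. H2ac8/H2bc8 (chr13:23571221-23571399) is a pair of histone H2A and H2B genes. Chpf/Tmem198 (chr1:75479472-75479531) and Nbeal2/Ccdc12 (chr9:110654162-110654307) are pairs higher in brain and in lung, respectively. Each had the lowest p in its direction among called pairs for which such a stretch, of at least 30 bases, could be read. That required the left gene on the minus strand, the right gene on the plus strand and a single promoter sequence holding the whole stretch. The limit of 30 bases kept Fbxo44/Fbxo2 out of this set. Peg3/Usp29, Cdc40/Wasf1 and Gabrb1/Gabra4 had a lower p than Chpf/Tmem198, but their peaks did not cover both starts.
Nfya/Oard1: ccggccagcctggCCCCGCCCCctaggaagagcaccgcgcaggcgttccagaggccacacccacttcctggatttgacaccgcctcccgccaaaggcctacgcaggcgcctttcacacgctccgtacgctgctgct
Npc2/Isca2: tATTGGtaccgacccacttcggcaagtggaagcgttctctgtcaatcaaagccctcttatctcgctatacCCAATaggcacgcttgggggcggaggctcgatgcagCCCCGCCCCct
Mrps12/Sars2: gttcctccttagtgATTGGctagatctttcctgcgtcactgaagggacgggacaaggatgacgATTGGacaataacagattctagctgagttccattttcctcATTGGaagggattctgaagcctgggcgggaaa
H2ac8/H2bc8: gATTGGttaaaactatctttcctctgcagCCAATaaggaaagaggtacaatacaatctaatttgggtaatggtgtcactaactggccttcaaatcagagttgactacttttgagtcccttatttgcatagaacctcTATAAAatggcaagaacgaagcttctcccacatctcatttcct
Chpf/Tmem198: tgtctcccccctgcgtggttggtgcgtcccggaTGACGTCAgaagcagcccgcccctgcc
Nbeal2/Ccdc12: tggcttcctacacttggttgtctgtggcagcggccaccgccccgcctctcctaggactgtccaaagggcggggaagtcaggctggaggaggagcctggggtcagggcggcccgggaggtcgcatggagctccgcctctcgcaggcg

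The stretch of Mrps12/Sars2 held the letters bound by NFY, CCAAT, 3 times, all in the reverse orientation, and that of Npc2/Isca2 held them 2 times, once in each orientation. The histone stretch held CCAAT 2 times and a TATA box once, with a GC content of 38.5%, the lowest of these stretches. GC content was 68.4% in Nfya/Oard1, 58.1% in Npc2/Isca2, 48.1% in Mrps12/Sars2, 70.0% in Chpf/Tmem198 and 69.2% in Nbeal2/Ccdc12. No searched motif was found between the starts of Nbeal2 and Ccdc12.

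The second set shows accessible DNA of 3 peaks that were higher in brain and whose values are given below. In each, the bases are the part of the peak that a RefSeq promoter sequence of GRCm38.p6 of one of its genes holds, on the plus strand. For Fbxo44/Fbxo2 they are chr4:148160045-148160271, 54.6% of the peak, for Cdc40/Wasf1 chr10:40883284-40883583, 59.6%, and for Peg3/Usp29 chr7:6730358-6730469, the whole peak.
Fbxo44/Fbxo2: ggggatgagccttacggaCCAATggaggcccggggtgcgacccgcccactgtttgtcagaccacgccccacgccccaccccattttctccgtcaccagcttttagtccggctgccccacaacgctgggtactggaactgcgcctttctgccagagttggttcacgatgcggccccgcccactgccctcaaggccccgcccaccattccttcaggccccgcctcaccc
Cdc40/Wasf1: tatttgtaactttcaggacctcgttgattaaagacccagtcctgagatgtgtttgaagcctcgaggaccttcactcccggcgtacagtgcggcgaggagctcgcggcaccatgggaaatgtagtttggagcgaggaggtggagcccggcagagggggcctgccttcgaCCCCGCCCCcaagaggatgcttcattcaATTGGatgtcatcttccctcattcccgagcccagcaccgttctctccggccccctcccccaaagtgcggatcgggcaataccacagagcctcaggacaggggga
Peg3/Usp29: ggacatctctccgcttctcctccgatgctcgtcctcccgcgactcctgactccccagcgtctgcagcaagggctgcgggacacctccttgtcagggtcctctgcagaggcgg

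Fbxo44/Fbxo2 held CCAAT once, Cdc40/Wasf1 held CCAAT and a GC box once each, and the short peak of Peg3/Usp29 held none of the motifs. The 10 motifs were NRF1 with the letters CGCATGCG, ETS with ACCGGAAGT, YY1 with AAGATGGC, the GC box of SP and KLF factors with GGGGCGGGG, NFY with CCAAT, the TATA box with TATAAA, CRE with TGACGTCA, ZBTB33 with TCTCGCGAG, ZNF143 with ACTACAA and the E-box with CACGTG. Both strands were searched, only exact matches counted, and no motif's letters lie within another's, although matches can overlap. A match describes letters and not binding.

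A promoter sequence of 300 bases, 250 before to 50 after a start, was at hand for 533 of the 684 pairs or triples with only opposite starts. Their median GC content was 62.7% (interquartile range 57.3 to 68.0%), beside 61.0% in 3499 genes whose start alone was near a peak and 56.7% in 16452 autosomal coding genes. The ratio of observed to expected CpG was 0.867, 0.772 and 0.595 in the same order. With a GC content above 50% and a ratio above 0.6, 87.1% of the shared windows were CpG-rich, against 71.8% and 47.0%. One window at such a pair usually spans both starts, which sets it apart from a window at 1 start.

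Motif shares in the shared windows, single-start windows and all windows were 6.75%, 4.46% and 2.59% for NRF1, and 7.69%, 4.54% and 3.23% for YY1. For ZBTB33 they were 3.002%, 1.46% and 0.985%, for ZNF143 6.94%, 4.34% and 3.98%, and for ETS 3.002%, 2.34% and 1.495%. The TATA box ran the other way, with 4.69%, 7.52% and 13.5%. The GC box was in 19.3%, 24.3% and 15.9%, and CCAAT in 39.96%, 41.7% and 38.96%. CRE was in 4.13%, 3.92% and 2.42%, and the E-box in 11.4%, 11.5% and 7.96%. None of these shares was tested.

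Total reads in peaks ranged from 573596 to 10973796 per library, and 24.7 to 58.0% of them were mitochondrial in lung and 93.4 to 95.8% in brain. Reads in nuclear peaks numbered 340697 to 3075377 in lung and 319307 to 465489 in brain. Levels below are in RPM, the reads in a peak per 1000000 reads over nuclear peaks of the same library. Lung 50-nuclei replicates 2 and 3 stood apart, as they reached far fewer peaks than the others, and the tissue comparison is given with and without them. Summed over 24 peaks near neuronal and synaptic marker genes, accessibility was 190 to 314 RPM in lung and 881 to 1086 RPM in brain. Over 22 peaks near endothelial markers it was 777 to 1093 RPM in lung and 364 to 430 RPM in brain, while 18 peaks near lung epithelial markers gave 699 to 887 RPM in lung and 707 to 836 RPM in brain, overlapping. In these pooled nuclei, fewer cells of a type and less accessibility per cell cannot be told apart.

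Shared gene-end peaks were wide and strong. Their median width was 319.5 bp (interquartile range 175 to 486 bp, range 90 to 1182 bp), beside 264 bp for 7737 peaks near 1 coding gene start, 149.5 bp for 222 peaks near 1 coding gene 3′ end and 140 bp for peaks near no gene end. Over 300 bp wide were 53.4% of shared peaks, 42.8% of peaks at 1 start and 11.3% of peaks at none. The median level, with the 4 groups weighted equally, was 42.8 RPM (interquartile range 15.9 to 85.2 RPM) at shared peaks, 29.1 RPM at 1 start and 11.01 RPM at none. Per kb of peak, the medians were 129, 112 and 77.5 RPM.

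**Figure D1:**
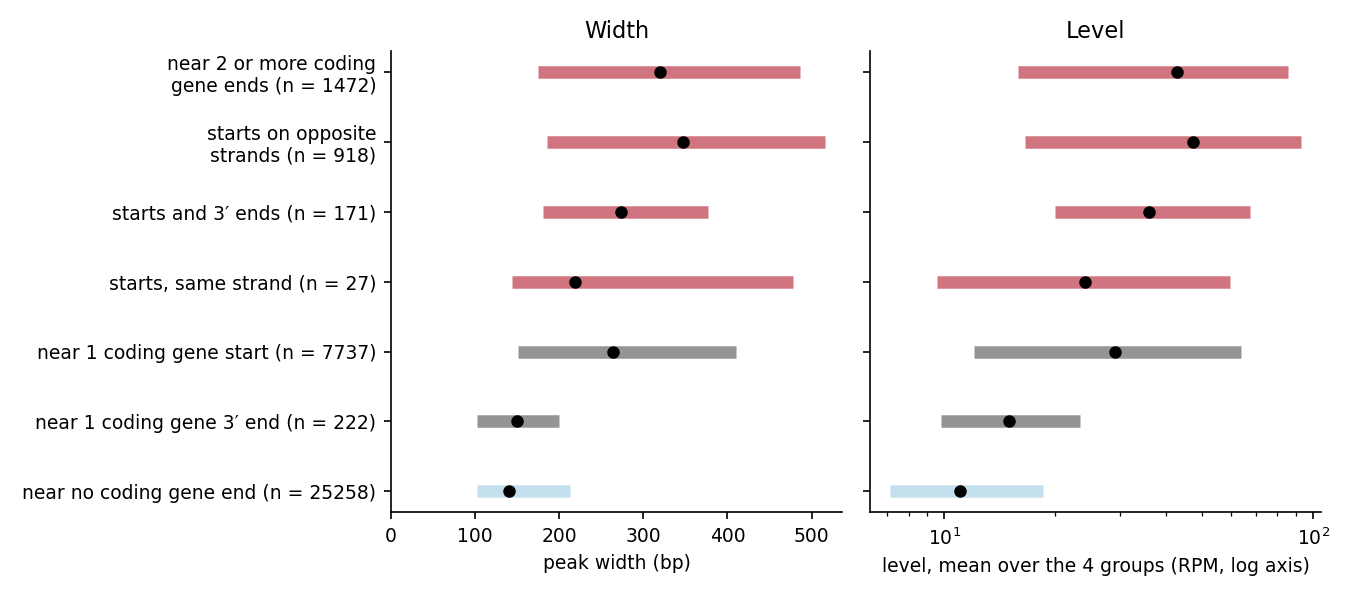
Width in bp (left) and level in RPM on a log axis (right) of shared gene-end peaks (red), peaks near 1 coding gene end (grey) and peaks near none (blue). Points are medians, bars run from the first to the third quartile over peaks, and n is the number of peaks. Peaks at opposite starts have the highest medians, 347.5 bp and 47.2 RPM.

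Among the shared peaks, those at opposite starts had the highest medians, 347.5 bp and 47.2 RPM. Peaks at a start and a 3′ end had medians of 274 bp and 35.8 RPM, and the 27 at starts on the same strand 219 bp and 24.0 RPM. The distance between opposite starts went with small differences only. Median widths were 323 bp for starts up to 50 bp apart, 351.5 bp for 50 to 150 bp, 368 bp for 150 to 300 bp and 330.5 bp beyond, and median levels were 40.6, 51.3, 49.98 and 41.8 RPM.

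A pair did not always have a single peak. For 833 pairs there was 1, for 277 there were 2, for 27 there were 3 and for 1 there were 4. In the 305 pairs with more than 1, the strongest peak held a median of 82.5% of the pair's reads and was a median of 358 bp wide, whereas the second was 136 bp wide. The split was more even in some of these pairs, where the strongest peak held 62.3% at Sirt3/Psmd13, 54.8% at Uqcrh/Lrrc41 and 50.4% at Elf1/Wbp4. The Sirt3/Psmd13 peaks of 266 and 244 bp had lung medians of 17.4 and 36.0 RPM. Sirt3 is a mitochondrial deacetylase and Psmd13 a subunit of the proteasome's regulatory particle.

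The strongest shared peaks were among the most accessible in the whole table. Ubxn6/Hdgfl2, Dcaf6/Mpc2, LOC114841036/Fkbp2, Tsks/Ap2a1 and Rita1/Ddx54 ranked 5, 6, 7, 12 and 15 of all nuclear peaks. Dcaf6 encodes a substrate receptor of a ubiquitin ligase and Mpc2 a subunit of the mitochondrial pyruvate carrier. Their peak (chr1:165460309-165461400, 1091 bp) had 373, 430 and 455 RPM as lowest, median and highest lung values and 490, 492, 494 and 567 RPM in brain. The tissues did not overlap, yet the log2 fold of brain over lung was 0.29 ± 0.18 (SE) with an adjusted p of 0.304 in edgeR's quasi-likelihood test.

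Ap2a1 encodes a subunit of the clathrin adaptor AP-2, and Tsks a protein of the testis. The Tsks/Ap2a1 peak (chr7:44929407-44930109, starts 18 bp apart) had 380, 406 and 449 RPM in lung and 484, 363, 464 and 406 RPM in brain. Lung and brain overlapped, and the log2 fold was 0.06 ± 0.19 (SE, edgeR adjusted p = 0.868). Ddx54 is an RNA helicase, and the Rita1/Ddx54 peak ran from 288 to 426 RPM in lung and from 414 to 484 RPM in brain. Fkbp2 is a peptidyl-prolyl isomerase of the endoplasmic reticulum, and its peak ran from 323 to 494 RPM in lung and from 419 to 526 RPM in brain. At Ubxn6/Hdgfl2 the lung values lay between 468 and 633 RPM and the brain values between 323 and 453 RPM. Only these last and Dcaf6/Mpc2 separated the tissues among the 5, and none of the 5 was called, with adjusted p from 0.0867 to 0.868. Leaving out lung 50-nuclei replicate 3 gave Ubxn6/Hdgfl2 an adjusted p of 0.0333 with a log2 fold of -0.50, and leaving out lung 50-nuclei replicate 1 gave Rita1/Ddx54 one of 0.0415 with a log2 fold of 0.52. Scaling to nuclear totals also called Ubxn6/Hdgfl2 (0.0239), and DESeq2 called Dcaf6/Mpc2 (0.0496) and Rita1/Ddx54 (0.0394).

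Long-known bidirectional pairs had reads in both tissues. Of 17 such pairs listed, 14 had a shared peak, and the exceptions were Acat2/Tcp1, Col4a3/Col4a4 and Psmb1/Tbp. None of the 17 peaks at these 14 pairs was called between tissues. Hspe1/Hspd1, the mitochondrial co-chaperonin and its chaperonin, had 89.6, 127 and 167 RPM in lung and 104, 153, 113 and 155 RPM in brain (log2 fold 0.08 ± 0.26, edgeR adjusted p = 0.884). Atm/Npat, a DNA damage kinase and a histone gene coactivator with starts 61 bp apart, had 106, 177 and 325 RPM in lung and 192, 163, 208 and 170 RPM in brain. The main Brca1/Nbr1 peak, at a DNA repair gene and an autophagy receptor, had 30.7, 34.95 and 48.2 RPM in lung and 32.8, 40.7, 40.1 and 38.7 RPM in brain. In all 3 the brain values lay within the lung range.

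Wrap53/Trp53, a telomerase cofactor and the tumour suppressor p53, had 26.4, 29.1 and 49.8 RPM in lung and 10.9, 43.8, 50.1 and 51.6 RPM in brain. The weakest peak of the known pairs was the flank of Brca1/Nbr1, with 0, 3.50 and 14.6 RPM in lung and 0, 6.26, 7.52 and 4.30 RPM in brain. Col4a2/Col4a1, the type IV collagen chains of basement membranes, had 6.65, 34.5 and 41.1 RPM in lung and 49.3, 34.4, 82.7 and 53.7 RPM in brain. Its log2 fold was 0.95 ± 0.47 (SE) with an edgeR adjusted p of 0.200. Without lung 50-nuclei replicates 2 and 3 together it passed, with a log2 fold of 1.30 and an adjusted p of 0.0157.

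Psmb9/Tap1 joins an immunoproteasome subunit to a peptide transporter of antigen presentation. It had 82.2, 138 and 186 RPM in lung and 57.5, 110, 103 and 81.6 RPM in brain, which overlapped (log2 fold -0.70 ± 0.28, edgeR adjusted p = 0.108). Without lung 50-nuclei replicate 2, the lowest lung library there, the adjusted p was 0.0179 and the log2 fold -0.86. Hars2/Hars, the mitochondrial and cytosolic histidyl-tRNA synthetases with ends 3 bp apart, had 11.7, 43.5 and 53.4 RPM in lung and 76.6, 90.8, 70.2 and 64.4 RPM in brain. The tissues did not overlap there, and the log2 fold of 1.04 ± 0.37 had an edgeR adjusted p of 0.0672. Leaving out lung 50-nuclei replicate 1 or 3 brought it under the threshold, with 0.00672 and 0.0363, as did RLE size factors (0.0334) and DESeq2 (0.0165). Mcm4/Prkdc, with an edgeR adjusted p of 0.390, also passed without lung 50-nuclei replicate 1 (0.0350, log2 fold 0.68).

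Shared peaks took up 8.36 to 8.96% of nuclear reads in the 6 lung libraries and 8.98 to 9.82% in the 4 brain libraries. The means were 8.64% ± 0.243 (SD, n = 6) in lung and 9.59% ± 0.405 (SD, n = 4) in brain. Peaks near 1 gene end went the same way, with 42.6% ± 0.923 (SD, n = 6) in lung and 47.6% ± 1.49 (SD, n = 4) in brain. These shares were not tested.

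Most shared peaks were reached even by the shallow libraries. At least 1 read was present at 94.2%, 77.3% and 74.3% of them in lung 50-nuclei replicates 1, 2 and 3. In lung at 200 nuclei the shares were 97.3%, 97.8% and 98.6%, in brain at 50 nuclei 98.4% in both libraries, and in brain at 200 nuclei 96.6% and 98.9%. The lowest share, 74.3%, compared with 69.4% of peaks at 1 start and 50.7% of peaks at no gene end in the same library, and shared peaks had the highest share of the 3 classes in each of the 10 libraries. A limit of 3 reads gave 71.1% and 71.0% in lung 50-nuclei replicates 2 and 3. By pair, at least 1 peak had a read in 89.5% and 87.4% of the 1138 pairs there and in over 99% elsewhere.

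**Figure D2:**
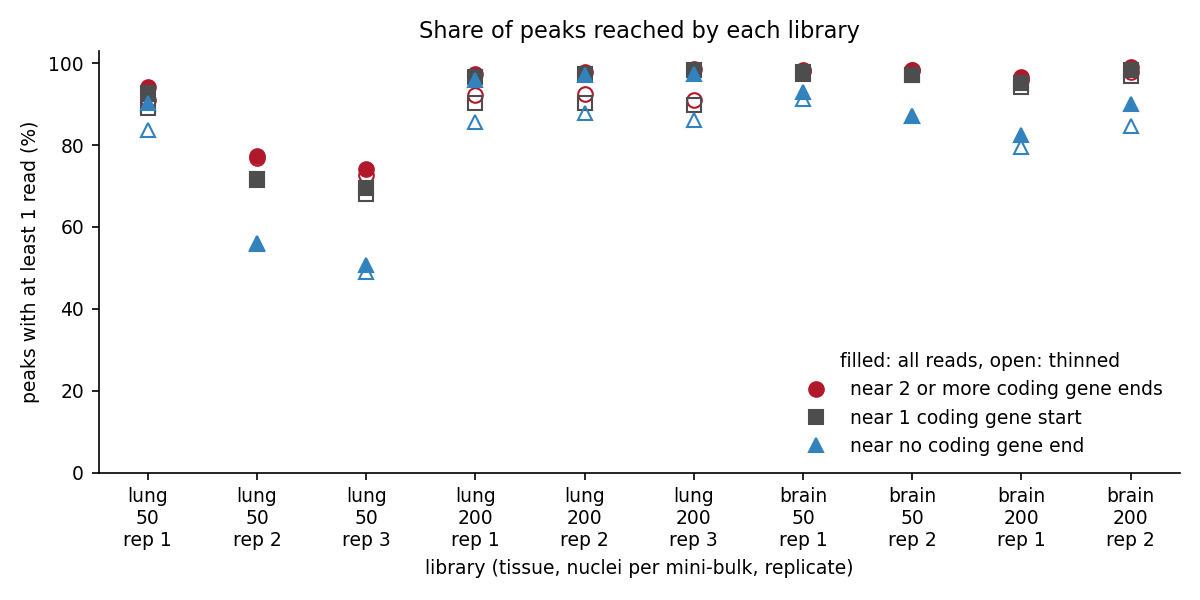
Share of peaks with at least 1 read (%) in each of the 10 libraries, named by tissue, nuclei per mini-bulk and replicate, for shared gene-end peaks (red), peaks near 1 coding gene start (grey) and peaks near no coding gene end (blue). Filled symbols use all reads and open ones 319307 nuclear reads drawn at random, and lung 50-nuclei replicates 2 and 3 lie lowest in all 3 classes.

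Read number alone did not order the libraries. Brain 50-nuclei replicate 2 had the fewest nuclear reads, 319307, and reached 98.4% of shared peaks, whereas lung 50-nuclei replicate 3 had 547792 and reached 74.3%. At an equal 319307 nuclear reads drawn per library, lung libraries of 50 nuclei reached 91.1%, 76.8% and 72.8% of shared peaks, and those of 200 nuclei 92.3%, 92.5% and 91.0%. In brain they were 97.96%, 98.4%, 95.8% and 97.8%. Lung 50-nuclei replicates 2 and 3 therefore remained the lowest at equal depth.

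Width went with detection. After thinning, lung 50-nuclei replicates 2 and 3 held a read at 33.8% and 23.7% of shared peaks under 150 bp, at 68.3% and 66.8% of those of 150 to under 300 bp, and at 99.4% and 96.6% of those of 500 bp and wider. Peaks at 1 start gave 32.0% and 29.1%, 69.5% and 63.6%, and 99.1% and 98.1% in the same classes. Within a width class, shared peaks and single-start peaks thus had similar shares. Only 19.5% of shared peaks were under 150 bp, against 24.7% of peaks at 1 start and 54.5% of peaks at none.

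The peaks that both shallow lung libraries missed were narrow and weak. A total of 206 shared peaks had 0 reads in lung 50-nuclei replicates 2 and 3, with median values of 114.5 bp in width and 7.56 RPM over the other 8 libraries. The 965 with reads in both had medians of 419 bp and 67.3 RPM. Of the 206, 102 had a read in each of the other 8 libraries. By level in those 8, 60 and 81 of 372 peaks of 20 to 50 RPM had no read in replicates 2 and 3, although 20 RPM corresponds to 6.81 and 10.96 reads there. From 50 to 100 RPM, 9 and 18 of 367 had none, and from 100 RPM each of the 290 peaks had a read. A read was present in all 10 libraries at 941 shared peaks (63.9%), beside 57.0% of peaks at 1 start and 25.7% at none. Without lung 50-nuclei replicates 2 and 3, the shares with a read in each of the other 8 were 87.3%, 83.4% and 57.8%.

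Brain and lung were compared to find shared peaks that differ between the tissues. With edgeR's quasi-likelihood test over all peaks, averaged over both mini-bulk sizes, 58 of 1469 tested shared peaks were higher in brain and 12 were higher in lung at a Benjamini-Hochberg adjusted p under 0.05. That is 3.95% and 0.817%, where over all 37466 tested peaks 5.76% were higher in brain and 4.39% higher in lung, 10.2% in all. Peaks at 1 start leaned to brain as well, with 6.38% higher in brain and 1.37% higher in lung. Together 70 shared peaks were called, 4.77%, beside 7.75% of peaks at 1 start, 13.96% of peaks at 1 3′ end and 11.3% of peaks at none. The tissues did not overlap in 55 of the 70. Of the 1472 shared peaks, tested or not, 120 had every brain value above every lung value and 27 the reverse. The same counts over all peaks are not given, so neither these nor the 55 set shared peaks apart.

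The counts depended on the libraries used, and those over all peaks moved with them. Brain-higher calls numbered 14 (0.954%, beside 2.34% of all peaks) without brain 200-nuclei replicate 1 and 14 (0.953%, beside 2.54%) without brain 50-nuclei replicate 2. They numbered 15 (1.02%, beside 2.62%) without brain 50-nuclei replicate 1 and 20 (1.36%, beside 2.97%) without brain 200-nuclei replicate 2. Leaving out lung 200-nuclei replicate 1, 2 or 3 gave 29 (1.98%, beside 3.83%), 22 (1.5%, beside 3.46%) and 20 (1.37%, beside 3.09%). Leaving out lung 50-nuclei replicate 1, 2 or 3 gave 241 (16.4%, beside 14.0%), 93 (6.33%, beside 7.13%) and 122 (8.30%, beside 8.84%). The share of shared peaks was above that of all peaks in 1 of these 10 fits, that without lung 50-nuclei replicate 1. With DESeq2 the brain-higher shares were 8.85% and 9.04%, and with edgeR's default filter 2.70% and 2.43%, so the lower share of shared peaks did not hold in every setting.

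Lung-higher calls numbered 5 (0.340%, beside 2.14% of all peaks) without brain 50-nuclei replicate 1, 6 (0.409%, beside 1.89%) without brain 200-nuclei replicate 1 and 6 (0.410%, beside 2.39%) without lung 200-nuclei replicate 3. They numbered 19 (1.29%, beside 6.32%) and 28 (1.91%, beside 8.65%) without lung 50-nuclei replicates 2 and 3. Without both of the last, a choice made after seeing the data, 152 shared peaks were higher in brain and 48 in lung, 10.3% and 3.27%, beside 9.95% and 12.4% of all peaks. Of the 58 and 12, 52 and 12 were still called. Through these and the other settings 10 of the 70 stayed called, and Gabrb1/Gabra4 stayed called in the 17 settings that tested it.

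Fold changes at shared peaks were small. The median log2 fold was 0.36 and 72.4% were above 0, whereas over all peaks the median was 0.07. Peaks at 1 start had a median of 0.37, close to that of shared peaks. Without lung 50-nuclei replicates 2 and 3, the median was 0.27 at shared peaks with 66.6% above 0, 0.28 at 1 start and -0.02 over all peaks. Under 4 other scalings the median of shared peaks lay 0.28 above that of all peaks each time. Without regard to sign, the median log2 fold was 0.50 at shared peaks, 0.58 at 1 start and 1.11 at none. These medians went with level, taken here as edgeR's log2 CPM, which counts mitochondrial peaks too. Under 2 they were 1.22, 1.25 and 1.20 in the same order, and at 2 to under 3 they were 0.65, 0.70 and 1.05. At 3 to under 4 they were 0.46, 0.43 and 0.91, and at 4 and over 0.281, 0.275 and 0.373. At like levels, shared peaks were thus close to peaks at 1 start. At a log2 CPM of 4 and over, 3.58% of 475 shared peaks were called, beside 5.76% of peaks at 1 start and 19.0% at none.

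**Figure D3:**
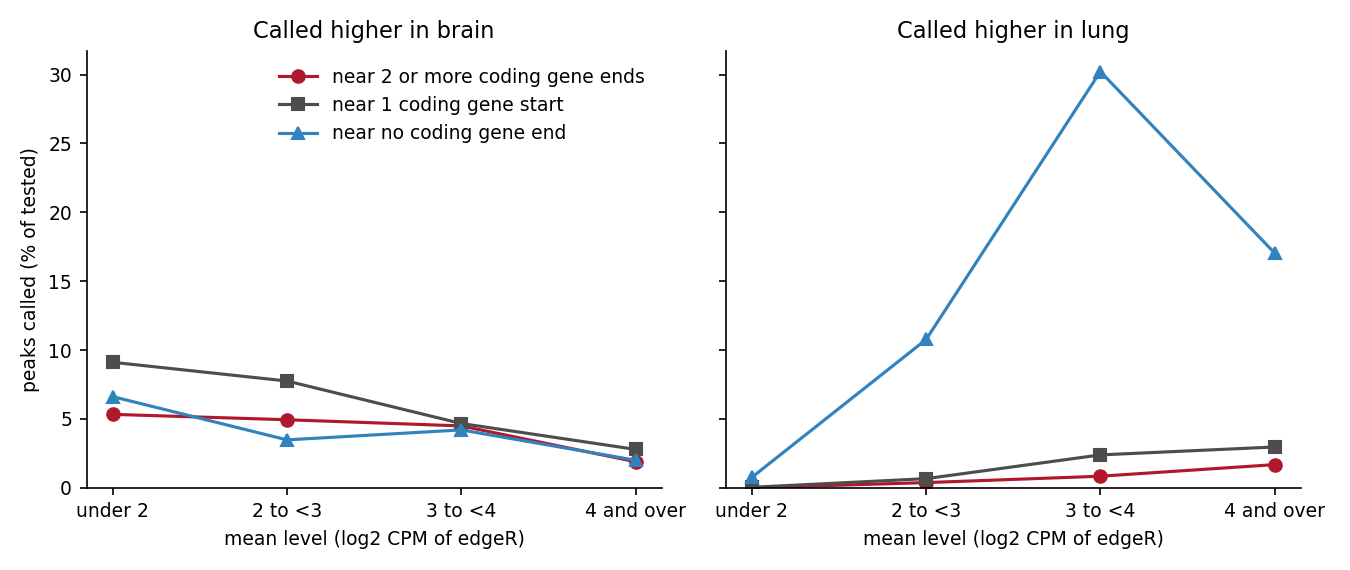
Share of tested peaks (%) called higher in brain (left) or in lung (right) by edgeR at an adjusted p under 0.05, in 4 classes of mean log2 CPM, for shared gene-end peaks (red), peaks near 1 coding gene start (grey) and peaks near no coding gene end (blue). CPM is edgeR's level over all peaks, mitochondrial ones included, and differs from RPM. Lung-higher calls reach 30.2% of peaks near no gene end at 3 to under 4. In every class they stay at or under 1.68% of shared peaks and 2.97% of peaks near 1 start.

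The calls were counted by orientation, without a test between the kinds. Peaks at opposite starts had 31 brain-higher and 3 lung-higher calls among 916 tested, 3.38% and 0.328%. Those at a start and a 3′ end had 8 and 4 of 171, 4.68% and 2.34%. Of 27 at starts on the same strand, 4 (14.8%) were higher in brain. Of 7 at 3′ ends only, 1 (14.3%) was higher in lung. Over all tested peaks the shares were 5.76% and 4.39%. Of the 4 same-strand calls, Slc5a3/Mrps6 had starts 14 bp apart. At Cers1/Gdf1, Gm20498/Synj2bp and Eef1akmt4/Eef1akmt4-ece2 both genes started at the same position.

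The brain-higher peaks were narrower and weaker than the lung-higher ones. Their median width was 227 bp and their median level 27.6 RPM, with 19 of 58 under 150 bp. The lung-higher peaks had medians of 411.5 bp and 80.3 RPM. Median log2 folds were 2.41 and -1.29, where 12 of the 58 brain-higher peaks had 0 reads in all lung libraries of 50 nuclei and folds that depend on the prior count of the model. Of the 58 brain-higher peaks, 25 (43.1%) had 0 reads in both lung 50-nuclei replicates 2 and 3, beside 203 of the 1469 tested (13.8%) and none of the 12 lung-higher peaks. The part of these zeros in the calls was not tested beyond the counts without those libraries given above.

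The 10 brain-higher peaks with the lowest p included pairs with genes known from neurons and from oligodendrocytes. First among them was Il25/Cmtm5 (chr14:54935928-54936171), a cytokine gene next to Cmtm5, a membrane protein gene expressed in oligodendrocytes. It had 0, 0.366 and 1.42 RPM as lowest, median and highest lung values and 54.7, 72.0, 75.2 and 79.5 RPM in brain. The log2 fold was 6.42 ± 0.74 (SE, edgeR adjusted p = 1.87e-07).

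Fbxo44 and Fbxo2 encode F-box proteins, the substrate-binding parts of ubiquitin ligases, and Fbxo2 recognises glycoproteins in neurons. Their starts are 15 bp apart in the stretch printed above, and the peak (chr4:148159856-148160271) is 415 bp wide. It had 14.7, 36.7 and 45.4 RPM in lung and 90.3, 166, 130 and 116 RPM in brain. Every brain library was above every lung library, at a log2 fold of 1.89 ± 0.32 (SE, edgeR adjusted p = 0.000145). A flanking peak of 110 bp at the same pair was also higher in brain, with 0, 2.50 and 5.54 RPM in lung and 30.1, 21.9, 7.52 and 12.9 RPM in brain (log2 fold 3.19 ± 1.11, edgeR adjusted p = 0.0467). That second call ended without any single brain or lung 200-nuclei library.

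Peg3 and Usp29 are neighbouring imprinted genes, expressed from the paternal allele. Their peak, printed in full above, had 0, 1.14 and 4.27 RPM in lung and 49.3, 56.4, 50.1 and 27.9 RPM in brain (log2 fold 4.56 ± 0.84, edgeR adjusted p = 0.000264). Cend1 promotes the exit of neuronal precursors from the cell cycle, and Slc25a22 is a mitochondrial glutamate carrier. The Cend1/Slc25a22 peak (chr7:141429437-141429615), at the start of Cend1 and the 3′ end of Slc25a22, had 0, 2.76 and 5.69 RPM in lung and 54.7, 53.2, 50.1 and 38.7 RPM in brain. Lung and brain did not overlap at either pair, and the log2 fold at Cend1/Slc25a22 was 4.02 ± 0.74 (SE, edgeR adjusted p = 0.000278).

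Wasf1 encodes WAVE1, an actin regulator of the brain, and Cdc40 a splicing factor. The Cdc40/Wasf1 peak (chr10:40883270-40883772) had 18.5, 29.9 and 49.3 RPM in lung and 112, 90.8, 113 and 96.7 RPM in brain, with no overlap (log2 fold 1.67 ± 0.34, edgeR adjusted p = 0.000886). Gabrb1 and Gabra4 encode subunits of the GABA-A receptor and are read in opposite directions from starts 387 bp apart. Their peak (chr5:71657927-71658074) had 0, 0 and 4.27 RPM in lung and 32.8, 37.6, 25.1 and 15.0 RPM in brain. The lung signal was 4 reads in all, and the log2 fold was 5.14 ± 1.16 (SE, edgeR adjusted p = 0.00121).

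Sftpc, surfactant protein C, is a defining gene of alveolar type 2 cells, and Bmp1 is a protease of the extracellular matrix. The Bmp1/Sftpc peak (chr14:70520651-70520755, 104 bp) had no read in 4 of 6 lung libraries, 3.88 and 7.80 RPM in the other two, and 49.3, 43.8, 27.6 and 21.5 RPM in brain. It was higher in brain (edgeR adjusted p = 0.00143), and no fold is given since lung at 50 nuclei had 0 reads. Its centre lay 13 bp from an end of Bmp1 and 238 bp from an end of Sftpc, and the strand of neither gene was in the table.

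Rusc1/Fdps, Slc5a3/Mrps6 and Nop2/Iffo1 completed the 10. Rusc1 is a signalling adaptor and Fdps makes farnesyl diphosphate for the sterol pathway. Their peak had 0, 5.18 and 17.6 RPM in lung and 90.3, 40.7, 27.6 and 32.2 RPM in brain (log2 fold 2.98 ± 0.68, edgeR adjusted p = 0.00267). Slc5a3, a myo-inositol transporter, and Mrps6, a mitochondrial ribosomal protein, start 14 bp apart on the same strand. Their peak had 11.7, 26.1 and 43.2 RPM in lung and 93.0, 90.8, 105 and 64.4 RPM in brain (log2 fold 1.69 ± 0.38, edgeR adjusted p = 0.00283). Nop2, a nucleolar RNA methyltransferase, and Iffo1, an intermediate filament family member, gave 14.2, 36.1 and 52.9 RPM in lung and 126, 87.7, 80.2 and 98.8 RPM in brain (log2 fold 1.52 ± 0.35, edgeR adjusted p = 0.00309). None of the 3 overlapped between tissues. The call ended without brain 50-nuclei replicate 1 at Rusc1/Fdps (adjusted p 0.0861) and Nop2/Iffo1 (0.0536), and without brain 200-nuclei replicate 1 at Slc5a3/Mrps6 (0.0548).

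**Figure D4:**
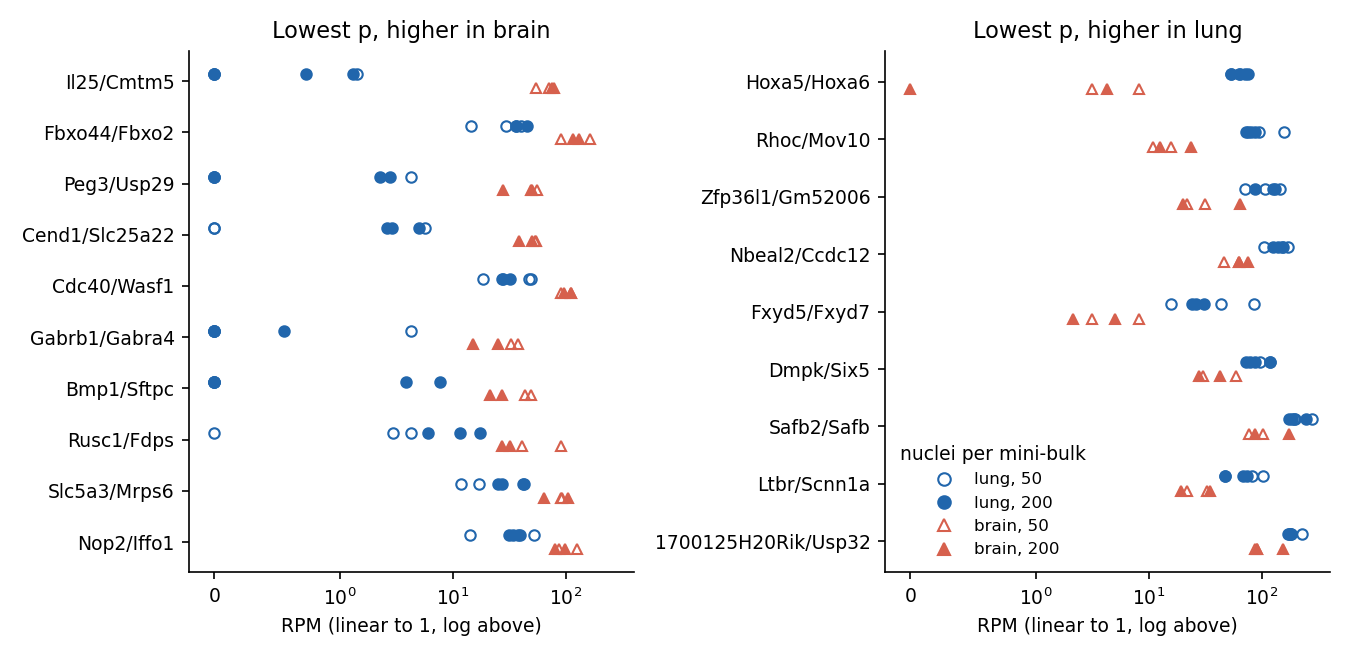
RPM in each library, linear to 1 and on a log axis above, at shared gene-end peaks with the lowest p, 10 higher in brain (left) and 9 higher in lung (right). Circles are lung libraries, triangles brain libraries, open symbols 50 nuclei and filled ones 200 nuclei, and the tissues overlap only at Safb2/Safb.

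Of the 10 lung-higher peaks with the lowest p, 9 are given here, and they included a developmental regulator, signalling genes and epithelial genes. Hoxa5 is a homeobox gene needed for lung development, and the Hoxa5/Hoxa6 peak lay at its start and the 3′ end of Hoxa6. It had 52.9, 63.5 and 75.4 RPM in lung and 8.21, 3.13, 0 and 4.30 RPM in brain (log2 fold -4.05 ± 0.62, edgeR adjusted p = 2.75e-05).

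Rhoc, a small GTPase of the cytoskeleton, and Mov10, an RNA helicase, end against each other. The Rhoc/Mov10 peak (chr3:104794468-104794818, 350 bp) lay 184 and 185 bp from these 3′ ends and was the only one of the 7 peaks between 3′ ends to be called. It had 73.2, 84.2 and 158 RPM in lung and 10.9, 15.7, 12.5 and 23.6 RPM in brain. Lung exceeded brain in all comparisons of single libraries, at a log2 fold of -2.55 ± 0.41 (SE, edgeR adjusted p = 5.13e-05).

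Zfp36l1 encodes a protein that promotes decay of mRNAs with AU-rich elements. The Zfp36l1/Gm52006 peak (chr12:80112927-80113490) had 71.2, 116 and 144 RPM in lung and 21.9, 31.3, 20.1 and 64.4 RPM in brain (log2 fold -1.69 ± 0.36, edgeR adjusted p = 0.00156). Every lung library was above every brain library.

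Nbeal2 acts in the formation of platelet granules, and it starts opposite Ccdc12 across the stretch printed above. Their peak (chr9:110653973-110654354) had 104, 144 and 170 RPM in lung and 46.5, 62.6, 62.7 and 75.2 RPM in brain (log2 fold -1.18 ± 0.28, edgeR adjusted p = 0.00488). Fxyd5 and Fxyd7 encode regulators of the sodium pump. The Fxyd5/Fxyd7 peak had 15.6, 28.7 and 85.1 RPM in lung and 8.21, 3.13, 5.01 and 2.15 RPM in brain (log2 fold -2.91 ± 0.76, edgeR adjusted p = 0.00866). The tissues did not overlap at either. The call at Nbeal2/Ccdc12 ended without brain 200-nuclei replicate 1 (adjusted p 0.0516) or brain 50-nuclei replicate 1 (0.0583), and that at Fxyd5/Fxyd7 without brain 200-nuclei replicate 2 (0.0656) or brain 50-nuclei replicate 2 (0.0741).

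The last 4 had calls that were ended by leaving out any of several single libraries, and by the replicate block described with the processing. Dmpk, a muscle protein kinase, lies beside the homeobox gene Six5, and their peak had 73.1, 91.9 and 119 RPM in lung and 30.1, 59.5, 42.6 and 27.9 RPM in brain (log2 fold -1.26 ± 0.34, edgeR adjusted p = 0.0129). Safb2 and Safb encode related nuclear scaffold proteins, with 173, 196 and 277 RPM in lung and 76.6, 103, 87.8 and 174 RPM in brain, where brain 200-nuclei replicate 2 overlapped the lung range (log2 fold -0.95 ± 0.26, edgeR adjusted p = 0.0130). Ltbr, the lymphotoxin beta receptor, lies beside Scnn1a, a subunit of the epithelial sodium channel, and their peak had 46.9, 71.1 and 102 RPM in lung and 32.8, 21.9, 35.1 and 19.3 RPM in brain (log2 fold -1.32 ± 0.40, edgeR adjusted p = 0.0273). The call at Dmpk/Six5 ended without brain 200-nuclei replicate 2, brain 50-nuclei replicate 1 or lung 200-nuclei replicate 3 (adjusted p 0.0706 to 0.124), and at Safb2/Safb without either replicate 1 of brain or lung 200-nuclei replicate 3 (0.0613 to 0.149). At Ltbr/Scnn1a it ended without any brain library or without lung 200-nuclei replicate 2 or 3 (0.0614 to 0.150), and with edgeR's default filter (0.0506).

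Usp32 encodes a ubiquitin-specific protease. The 1700125H20Rik/Usp32 peak (chr11:85139894-85140509), with opposite starts 108 bp apart, had 171, 179 and 226 RPM in lung and 90.3, 87.7, 90.3 and 155 RPM in brain. The tissues did not overlap, at a log2 fold of -0.80 ± 0.25 (SE, edgeR adjusted p = 0.0315). The call ended without brain 50-nuclei replicate 1 or 2, brain 200-nuclei replicate 1 or any lung 200-nuclei library (adjusted p 0.0623 to 0.220), and with edgeR's default filter (0.0622).

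Pairs with several peaks, 305 of the 1138, held 18 of the 70 called peaks, and the 833 pairs with 1 peak held 52. Of those 305 pairs, 277 had 2 peaks, 27 had 3 and 1 had 4. Among the 18, 5 were the strongest of their pair and 13 were not. Of all shared peaks tested 3.95% were higher in brain, and of all peaks 5.76%. The share called among weaker peaks alone is not given, so the 13 calls are not read as a trait of weaker peaks. All 13 were higher in brain, their median width was 128 bp, and the strongest peak beside each had a log2 fold between -0.70 and 1.90 with a median of 0.41. At Exd1/Chp1 the flank of 103 bp was higher in brain (edgeR adjusted p = 0.0234), and the strongest peak, 445 bp wide, had a log2 fold of -0.70 (edgeR adjusted p = 0.131). Tepsin/Ndufaf8 had a flank of 101 bp at 7.1 RPM and a strongest peak of 551 bp at 167 RPM, whose log2 fold was 0.46 (edgeR adjusted p = 0.219). Of the 13 weaker peaks 12 had 0 reads in both lung 50-nuclei replicates 2 and 3, and 8 had 0 in all 3 lung libraries of 50 nuclei, so their fitted folds depend on the prior count of the model. A difference between the folds of a weaker peak and its neighbour was not tested.

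**Figure D5:**
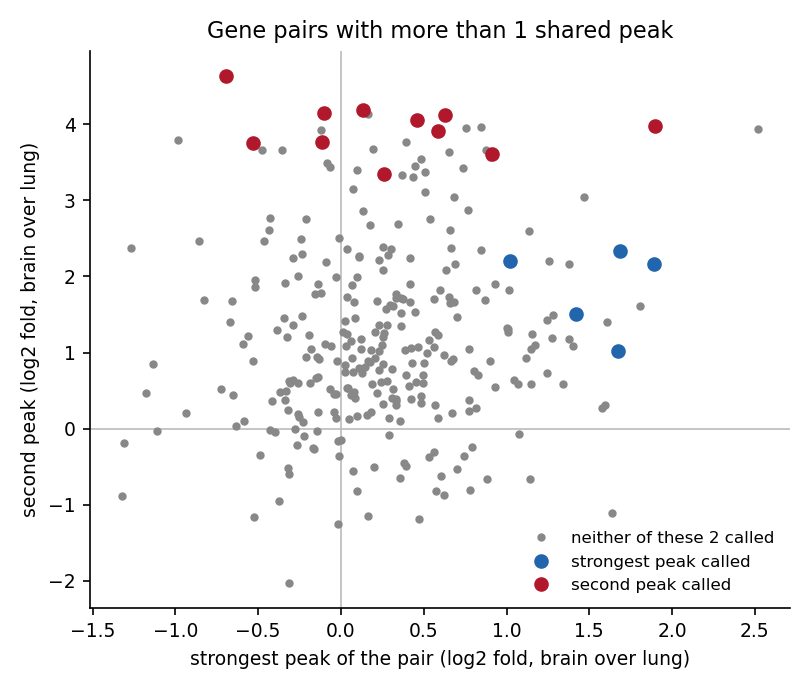
Log2 fold of brain over lung at the strongest (x axis) and second strongest (y axis) shared peak of each gene pair with more than 1, one point a pair. Pairs whose second peak was called (red) have fitted second-peak folds from 3.35 to 4.64, of which those with 0 reads in lung at 50 nuclei depend on the prior count, and their strongest peaks lie between -0.70 and 1.90.

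Lists of genes with basic cell functions, taken by symbol, are described by counts beside those over all peaks, where the median log2 fold was 0.07 and 5.76% were higher in brain. Mitochondrial ribosomal proteins had 44 shared peaks at 30 genes, with a median of 39.3 RPM and a median log2 fold of 0.49. Of these 2 were higher in brain, Slc5a3/Mrps6 above and a flank of 101 bp at Lrrc46/Mrpl10, and none was higher in lung. The Lrrc46/Mrpl10 flank had 0, 0.366 and 1.95 RPM in lung and 13.7, 3.13, 10.0 and 6.44 RPM in brain, and its call (edgeR adjusted p = 0.0325) ended without any brain or any lung 200-nuclei library (0.0624 to 0.240), and without lung 50-nuclei replicates 2 and 3 together (0.0584).

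The respiratory chain, which makes the proton gradient and ATP in mitochondria, had 52 shared peaks at 33 genes with a median log2 fold of 0.53. Among them 2 were higher in brain, both narrow. The Atp5a1/Haus1 flank, at the alpha subunit of ATP synthase, had 0, 0.325 and 1.11 RPM in lung and 10.9, 3.13, 12.5 and 8.59 RPM in brain (edgeR adjusted p = 0.0196). The Tepsin/Ndufaf8 flank, at an assembly factor of complex I, had 0, 0.650 and 7.20 RPM in lung and 16.4, 6.26, 5.01 and 21.5 RPM in brain, which overlapped (edgeR adjusted p = 0.0427). Both calls ended without brain 200-nuclei replicate 1, brain 50-nuclei replicate 1 or lung 200-nuclei replicate 2 or 3, and that at Tepsin/Ndufaf8 also without brain 200-nuclei replicate 2, brain 50-nuclei replicate 2 or lung 200-nuclei replicate 1 (adjusted p 0.0547 to 0.212 over both).

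DNA repair and replication genes had 40 shared peaks at 31 genes and a median log2 fold of 0.35, with 2 higher in brain. Fancm encodes a helicase of the Fanconi anaemia pathway, and the Fkbp3/Fancm peak of 783 bp had 47.5, 129 and 187 RPM in lung and 249, 238, 153 and 187 RPM in brain, which overlapped (log2 fold 0.86 ± 0.28, edgeR adjusted p = 0.0380). Pole2 encodes a subunit of DNA polymerase epsilon, and the second Klhdc1/Pole2 peak, between the starts, had 0, 1.14 and 7.76 RPM in lung and 8.21, 12.5, 25.1 and 6.44 RPM in brain, which overlapped (edgeR adjusted p = 0.0487). With edgeR's default filter its adjusted p was 0.0628. Any single brain library or lung 200-nuclei replicate 2 or 3 ended both calls, as did lung 50-nuclei replicate 2 at Fkbp3/Fancm and lung 200-nuclei replicate 1 at Klhdc1/Pole2 (adjusted p 0.0596 to 0.216 over both). Without lung 50-nuclei replicates 2 and 3 together, Fkbp3/Fancm had a log2 fold of 0.42 (edgeR adjusted p = 0.114).

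No shared peak was called in 6 further lists. These were cytosolic ribosomal proteins (25 peaks, median log2 fold 0.28, with the kinase gene Rps6kb1 taken in by its symbol), aminoacyl-tRNA ligases (15 peaks, 0.22), the proteasome (7 peaks, 0.12), chaperones (23 peaks, 0.12), RNA polymerase II and the spliceosome (19 peaks, 0.09) and replication-dependent histones (7 peaks, 0.29). The Zfp list of zinc finger proteins had 32 peaks and 1 call, the lung-higher Zfp36l1, which binds mRNA. Chaperone genes had the highest median level, 69.4 RPM, at a median width of 435 bp.

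Of the 7 histone peaks, 6 lay at ends of an H2A and an H2B gene and 1 at ends of an H4 and an H3 gene. H2bc13/H2ac13 had 20.5, 33.7 and 45.6 RPM in lung and 41.0, 116, 62.7 and 70.9 RPM in brain (log2 fold 1.13 ± 0.39, edgeR adjusted p = 0.0552). H4c1/H3c1 had 56.6, 87.2 and 122 RPM in lung and 120, 150, 120 and 168 RPM in brain (log2 fold 0.69 ± 0.27, edgeR adjusted p = 0.102). H2ac8/H2bc8, whose stretch is printed above, had 47.7, 65.2 and 84.0 RPM in lung and 41.0, 90.8, 60.2 and 75.2 RPM in brain (log2 fold 0.07 ± 0.33, edgeR adjusted p = 0.921). All 3 overlapped between tissues. Histone genes are near-identical copies, and how reads with several matches were handled is not given in the sources used here, so counts at them are uncertain.

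Of cell type marker genes, shared peaks lay at 2 of 40 neuronal, 2 of 22 endothelial and 3 of 19 lung epithelial genes, beside 2247 of 20665 autosomal coding genes. The endothelial genes were Col4a1 and Col4a2, described above. Protocadherins and the oligodendrocyte, astrocyte, microglia, lung mesenchyme and immune lists had no gene at any of them. Among neuronal genes, 1700008O03Rik/Shank1, at a postsynaptic scaffold gene, had 0, 38.4 and 61.6 RPM in lung and 65.7, 90.8, 72.7 and 110 RPM in brain, without overlap (log2 fold 1.29 ± 0.45, edgeR adjusted p = 0.0581). Dctn2/Kif5a, at a neuronal kinesin gene, had 66.3, 73.7 and 119 RPM in lung and 76.6, 50.1, 75.2 and 75.2 RPM in brain. Among lung epithelial genes, Abca3/Abca17, at the lipid transporter of surfactant, had 90.0, 117 and 139 RPM in lung and 90.3, 103, 108 and 120 RPM in brain, which overlapped. The peaks at Pbx2/Ager were under 18 RPM in every library.

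Mini-bulk size gave no calls. Comparing 200 with 50 nuclei averaged over tissues, 0 of 1469 shared peaks passed in edgeR, as over all peaks (0%), and DESeq2 called 0 as well. At an unadjusted p under 0.05 there were 66 shared peaks (4.49%), beside 1375 of all peaks (3.67%). The interaction of tissue and size also gave 0 in both tools (0% of all peaks), with 46 shared peaks (3.13%) and 1554 of all (4.15%) at an unadjusted p under 0.05. With 2 or 3 libraries a group and a coefficient of variation of 0.591, small differences were not detectable.

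The distance limit decided which peaks counted. Just inside it lay Madcam1/Tpgs1 and Tap1/Psmb8 with the second gene end at 500 bp and H4c1/H3c1 at 499 bp, with 52.0, 18.5 and 113 RPM. Just outside lay Stat2/Apof at 500.5 bp, Rom1/Eml3 at 501 bp and Xrcc3/Zfyve21 at 502 bp, with 7.48, 5.14 and 9.56 RPM.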

How the data were processed

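The data were raw read counts per peak, which the authors deposited as a single table for the 10 libraries. Its coordinates are of mm10, per the submitters' processing notes. These notes also list, without saying what each did, MACS2 2.2.7.1, Bowtie2 2.4.5, Trimmomatic 0.36, SAMtools 1.14, Picard, bcl2fastq 2.20, R 4.1.0 and deepTools 3.1.3. How peaks were merged, reads counted, duplicates treated and Tn5 cut sites shifted is not given in the sources used here.

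Peak centres were compared with gene starts and ends of RefSeq GRCm38.p6, the assembly of mm10, and strand came from the RefSeq promoter table. Peaks with at least 10 reads in all were tested with edgeR 4.0.16 quasi-likelihood tests in R 4.3.3 (TMM, a mean for each of the 4 groups). The p-values were Benjamini-Hochberg adjusted over 37466 peaks. Mitochondrial peaks were among these and in edgeR's library sizes, so its CPM is not the RPM used above. Printed log2 folds include edgeR's prior count. SE was worked out from the F statistic and the fold without that count, so it belongs to that unshrunk fold. No fold is given for a named peak where SE cannot be estimated. The script was tested on simulated data. Alternatives were DESeq2 1.42.0, other scalings and filters, a replicate block, limits of 250 and 1000 bp, thinning to 319307 reads and leaving out libraries. Peaks named were the 10 with the lowest p called in each direction, the 5 highest, those at known bidirectional pairs, called peaks of the gene lists and those nearest the limit. The printed sequences, the marker and histone list peaks and the weaker peaks of pairs were picked afterwards. Members, lists and rules were chosen with earlier results of these data known. A known pair and a lung-higher peak that these rules name are not reported here.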

Additional observations from a re-analysis of the deposited data

Results flagged for a closer look

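In 102 groups of 4 or 6 libraries examined, 8 values lay far from the rest of their group by Dixon's criterion, where about 1 in 20 groups does so by chance. In lung, 50-nuclei replicate 1 was high at Gabrb1/Gabra4 (4.27 RPM, nearest 0.554) and Wrap53/Trp53 (49.8 RPM, nearest 31.5), and replicate 2 at Rhoc/Mov10 (158 RPM, nearest 94.9). Lung 50-nuclei replicate 3 was high at the wider Mrps12/Sars2 peak (164 RPM, nearest 57.8) and at 1700125H20Rik/Usp32 (226 RPM, nearest 182). In brain, 200-nuclei replicate 2 was high at 1700125H20Rik/Usp32 (155 RPM, nearest 90.3) and Dcaf6/Mpc2 (567 RPM, nearest 494), and 50-nuclei replicate 1 had the lowest share of nuclear reads in shared peaks (8.98%, nearest 9.76%).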

How the results depend on the processing

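Brain-higher shared peaks numbered 58, 3.95% beside 5.76% of all peaks. They numbered 130 with DESeq2 (8.85% beside 9.04%), 97 with RLE size factors (6.60% beside 7.12%) and 37 with edgeR's default filter (2.70% beside 2.43%). The gap thus narrowed or turned there. Within 250 bp they numbered 38 and within 1000 bp 95, but these limits take in different numbers of peaks. Those 2 counts therefore do not show how the share called depends on the limit. Leaving out 1 library gave 14 to 241, and leaving out lung 50-nuclei replicates 2 and 3 together, added after seeing the data, 152. The shares beside these counts are given in the Results. Lung-higher peaks numbered 12, 0.817% beside 4.39% of all peaks and 1.37% of peaks at 1 start. They numbered 5 to 28 with 1 library left out and 48 without the same 2 libraries. Within 250 bp, again for a different number of peaks, there were 4. Shared peaks took 6.19% and 12.04% of nuclear reads within 250 and 1000 bp. With the replicate number as a block, 26 were higher in brain (1.77% beside 2.59%) and 7 in lung (0.477% beside 2.86%), and 9 of the 25 named called peaks were not called. Those 9 were Dmpk/Six5, Safb2/Safb, Ltbr/Scnn1a, 1700125H20Rik/Usp32 and Fkbp3/Fancm, and the weaker peaks at Lrrc46/Mrpl10, Atp5a1/Haus1, Tepsin/Ndufaf8 and Klhdc1/Pole2. The replicate numbers share no stated source, and deviations of same-numbered libraries correlated by -0.0295 to 0.0194, so they were not taken as pairs. The 0 counts for mini-bulk size and its interaction held in all settings run. No called value changed sign. The causes were not tested, except that fewer libraries or peaks were used. At 319307 reads, brain 50-nuclei replicate 2 reached 91.99% of shared peaks under 150 bp and lung 50-nuclei replicate 3 reached 23.7%. The lung 200-nuclei libraries reached 65.5 to 69.0% of them. What set these shares was not tested.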

Other observations

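Other called shared peaks, picked here after their values were seen, lay at genes with known roles in the brain. Nlgn2, a cell adhesion molecule of inhibitory synapses, shares a peak of 789 bp with Tmem256, which had 134, 147 and 267 RPM as lowest, median and highest lung values and 279, 244, 271 and 230 RPM in brain (log2 fold 0.67 ± 0.22, edgeR adjusted p = 0.0444). The tissues overlapped there. Aldh5a1 degrades the product of GABA breakdown, and the Aldh5a1/Gpld1 peak had 0, 6.32 and 12.8 RPM in lung and 46.5, 40.7, 50.1 and 19.3 RPM in brain (log2 fold 2.46 ± 0.71, edgeR adjusted p = 0.0187). Cers1, a ceramide synthase of neurons, and Gdf1 start at the same position, and their peak had 0, 4.63 and 23.5 RPM in lung and 43.8, 40.7, 55.2 and 30.1 RPM in brain (log2 fold 2.77 ± 0.72, edgeR adjusted p = 0.00860). Neither of the last overlapped between tissues.

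Among lung-higher peaks outside the first 10, Car11/Dbp lay at the start of Dbp, a transcription factor of circadian output. It had 201, 232 and 244 RPM in lung and 129, 153, 158 and 118 RPM in brain, without overlap (log2 fold -0.68 ± 0.23, edgeR adjusted p = 0.0482). Rab37/Slc9a3r1, at a scaffold gene of epithelial membranes, had 107, 134 and 239 RPM in lung and 60.2, 94.0, 90.3 and 81.6 RPM in brain (log2 fold -0.81 ± 0.27, edgeR adjusted p = 0.0453). The calls at these 5 peaks ended in 4 to 12 of 18 alternative settings each.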
